A study of Solanum lycopersicum with 12 samples.

Results

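Ascorbate peroxidases and the reductases that regenerate ascorbate were followed in ripe tomato fruit through 4 genes of 17887 in the count table. They were taken by identifier: Solyc06g005160 (APX1) and Solyc06g005150 (APX2) on chromosome 6, Solyc05g054760 (DHAR1) on chromosome 5 and Solyc09g009390 (MDHAR3) on chromosome 9. All 4 were present, and the filter on low counts removed 0 genes of the table. RNA was sequenced from the flesh (mesocarp) of red ripe fruits of greenhouse plants, with 3 libraries from each of 4 genotypes. The genotypes were the hybrid Q x G (QxG), its reciprocal G x Q (GxQ), and their parents, the lines Querubín FCA (Q) and Gema FCA (G). Both parents are recombinant inbred lines descended from a cross between cultivated tomato and Solanum pimpinellifolium, so all 4 genotypes may carry wild segments. The labels give no treatment, no harvest date and no plant for a fruit, so the p-values measure only the spread between these libraries.

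Ascorbate peroxidase uses ascorbate to reduce hydrogen peroxide to water, which leaves monodehydroascorbate behind. Monodehydroascorbate reductase (MDHAR) turns that product straight back into ascorbate. What escapes it becomes dehydroascorbate, which dehydroascorbate reductase (DHAR) reduces at the expense of glutathione, and glutathione reductase closes the cycle. In fruit the cycle is known for holding vitamin C in its reduced form while ripening cells make peroxide.

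APX1 was the 1 gene of the 4 called by the main test: its mean over both hybrids stood above midway between their parents. In that comparison 11.4% of all genes were called. APX2 was lowest in G, DHAR1 was high in Q and QxG and low in G, and MDHAR3 varied least relative to its level. The differences of these last 3 genes did not pass the main test in any comparison, whereas DESeq2, a second method, called some of them for APX2 and DHAR1. All 17887 genes were tested with edgeR's quasi-likelihood method and Benjamini-Hochberg adjustment, and a gene was called at an adjusted p under 0.05. Levels are CPM (counts scaled to a common library size), with library sizes adjusted by the trimmed mean of M-values. They are not divided by gene length, so they compare genotypes and not genes.

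Library totals lay between 15207931 and 25320267 counts, and each of the 4 genes had between 576 and 11072 counts in every library. Counting error was therefore small beside the differences between libraries. The first QxG library stood apart, with 1436 genes at 0 counts against 31 to 338 in the others, and so did the third Q library, which correlated with the other Q libraries at r = 0.953 and 0.957 across genes, where those correlated at 0.987. All 7 listed genes of ripe flesh (Solyc03g031860, Solyc10g080210, Solyc03g111690, Solyc06g051800, Solyc07g049530, Solyc01g095080 and Solyc03g111720) were measured, and none was at 0 in any library. Their summed level was 14760 to 17450 CPM in QxG, 8916 to 14370 in GxQ, 12380 to 33780 in Q and 19100 to 20870 in G, and the highest value was the third Q library. Of the seed genes 1 of 6 was in the table, at no more than 1.48 CPM, and the other 5 were not analysed here. Of the epidermis genes 2 of 4 were in the table, with sums of 5.02 to 9.73 CPM in QxG, 4.38 to 16.0 in GxQ, 13.4 to 22.1 in Q and 11.2 to 11.4 in G. Of the green plastid genes 2 of 4 were in the table, with sums of 7.46 to 16.9 CPM in QxG, 3.23 to 8.77 in GxQ, 11.3 to 22.5 in Q and 5.59 to 7.82 in G. The first QxG library held 1 gene at 0 counts in each of these 3 lists.

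APX1, an ascorbate peroxidase, had 208, 285 and 439.5 CPM in QxG and 319.8, 273 and 299 CPM in GxQ. It had 213, 127 and 202 CPM in Q and 141, 136 and 167 CPM in G. All hybrid libraries exceeded all parental ones except the first QxG library, which lay just under the first Q library. The means were 311 ± 118 CPM in QxG, 297 ± 23.5 in GxQ, 181 ± 47.1 in Q and 148 ± 16.2 in G (SD, n = 3 each).

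**Figure D1:**
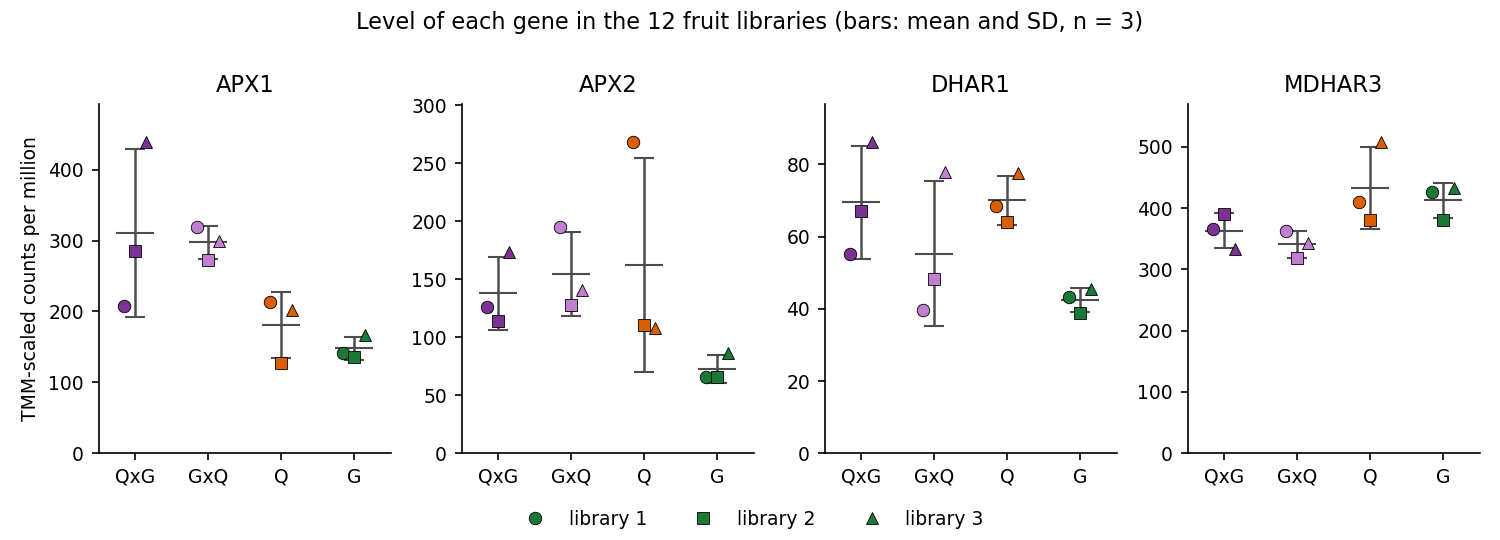
TMM-scaled CPM of APX1, APX2, DHAR1 and MDHAR3 in each library (points, shape by replicate number), with the mean and SD of the 3 libraries of each genotype. APX1 lies at 208 to 439.5 CPM in the hybrids and at 127 to 213 CPM in the parents, while the G libraries are the lowest for APX2 (65.5 to 86.7 CPM).

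Set against the mid-parent, the mean of the fitted log levels of Q and G, APX1 was 1.86-fold higher in the hybrids together (95% interval 1.40 to 2.46, log2 fold change 0.89, SE 0.19, adjusted p = 0.0120). It was the 1 called gene of the 4, where 11.4% of all genes were called in this comparison and 5.30% were called higher. DESeq2 also called 1 of the 4, against 18.1% of all genes. APX1 kept its call without any 1 of the 12 libraries (adjusted p 0.00513 to 0.0359) and without both libraries that stood apart. Against G alone it was higher by a log2 fold change of 1.07 in QxG (95% interval 0.49 to 1.65, adjusted p = 0.0304) and of 1.01 in GxQ (0.43 to 1.58, adjusted p = 0.0290). In each of these comparisons APX1 was the 1 called gene of the 4, where 8.50% of all genes were called for QxG against G and 12.3% for GxQ against G. DESeq2 called 3 of the 4 for QxG against G and 2 for GxQ against G, beside 15.5% and 18.9% of all genes. With 3 libraries a genotype these 2 calls were not stable. The call for QxG ended without any G library or without the third QxG library (adjusted p 0.0833 to 0.110), and the call for GxQ without any G library or without the first or the third GxQ library (0.0606 to 0.107).

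Against Q, the parent with more APX1, the gene was 1.72-fold higher in QxG (95% interval 1.16 to 2.55, adjusted p = 0.0813) and 1.64-fold higher in GxQ (1.11 to 2.44, adjusted p = 0.0839), and neither difference passed. No GxQ library overlapped with Q, whereas the first QxG library lay within the Q range. By edgeR 0 of the 4 genes were called for QxG against Q and for GxQ against Q, where 9.55% and 15.5% of all genes were called. At an unadjusted p under 0.05, 1 of the 4 was past the threshold for QxG against Q and 2 for GxQ against Q, beside 27.6% and 31.2% of all genes. DESeq2 called APX1 alone in each (adjusted p = 0.0277 and 0.0467), beside 17.3% and 22.4% of all genes. Without the first QxG library both edgeR calls were made (adjusted p = 0.0319 and 0.0471).

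The summed level of the ripe flesh genes was lower in each hybrid library (8916 to 17450 CPM) than in each G library (19100 to 20870 CPM). In GxQ all members but Solyc07g049530 had lower means than in G, such as Solyc03g031860 (5562 against 8968 CPM) and Solyc03g111690 (652.5 against 3041 CPM). Solyc07g049530 had a mean of 1284 CPM in GxQ (841, 627 and 2383 CPM) against 1030 CPM in G. In QxG the members went both ways. Solyc07g049530 (1745 CPM), Solyc06g051800 (722 against 577 CPM) and Solyc01g095080 (580 against 568 CPM) had higher means than in G. The others had lower means, such as Solyc03g031860 (6704 CPM). The part of these genes in the APX1 difference was not tested. In whole flesh, more RNA per cell and more cells of a type rich in the transcript cannot be told apart.

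**Figure D2:**
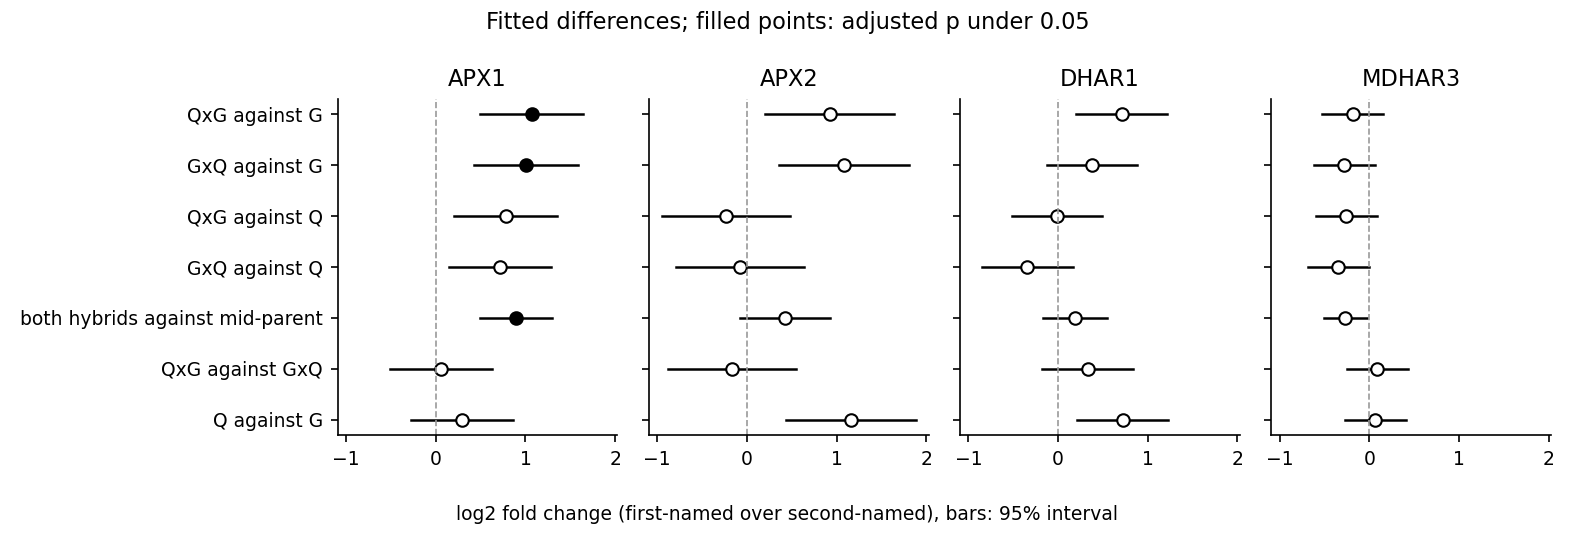
Log2 fold change of each of the 4 genes (first-named genotype over the second-named) with its 95% interval in 7 comparisons; filled points have an adjusted p under 0.05. The filled points are all APX1, in both hybrids against G (1.07 and 1.01) and against the mid-parent (0.89), and the MDHAR3 points all lie between -0.35 and 0.09.

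APX2 is the neighbour of APX1. The identifiers are consecutive, and in the RefSeq gene table (assembly SLM_r2.1) no gene lies between genes of these 2 names. APX2 stood at 126, 114 and 174 CPM in QxG and at 195, 127 and 141 CPM in GxQ. It stood at 269, 111 and 108 CPM in Q and at 65.5, 66.0 and 86.7 CPM in G. The G libraries were the 3 lowest of the 12, and the first Q library was the highest, at more than any hybrid library.

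The fitted level of APX2 was 2.23-fold higher in Q than in G (95% interval 1.35 to 3.69, adjusted p = 0.0549), 2.12-fold higher in GxQ than in G (adjusted p = 0.0529) and 1.89-fold higher in QxG than in G (1.15 to 3.12, adjusted p = 0.104). None of these passed the threshold, and DESeq2 called all 3 (adjusted p = 0.00809, 0.0109 and 0.0353). The first Q library decided much of the parental difference. Without it the log2 fold change of Q against G was 0.60 in place of 1.16 (adjusted p = 0.187). The hybrids then exceeded the mid-parent by a log2 fold change of 0.73 (adjusted p = 0.0253), where the value with all libraries was 0.42 (adjusted p = 0.258). The summed level of the 2 measured epidermis genes was also higher in Q than in G, and 1 gene carried it. Solyc02g085870 had a mean of 8.16 CPM in Q against 0.552 CPM in G, and Solyc01g091630 had 9.21 CPM in Q against 10.8 CPM in G. Their part in the APX2 difference was not tested.

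The split of counts between the neighbours differed most between single Q libraries. APX1 took 62.2%, 71.5% and 71.7% of the counts of the pair in QxG and 62.1%, 68.2% and 68.0% in GxQ. It took 44.3%, 53.4% and 65.2% in Q and 68.3%, 67.4% and 65.8% in G. Wilson 95% intervals of these single shares were 1.74 to 3.35 percentage points wide and cover counting error only. The first and second Q libraries lay below all others, and the first was the only library with more APX2 than APX1 counts. The mean log2 ratio of APX1 to APX2 counts was 1.05 ± 0.28 in the hybrids and 0.64 ± 0.58 in the parents (SD, n = 6 each). That difference of 0.40 did not pass a two-sided exact permutation test over the libraries (p = 0.160, where 924 splits allow a smallest p of 0.00216). By genotype the mean was 1.13 in QxG, 0.97 in GxQ, 0.26 in Q and 1.03 in G, so G lay near the hybrids. The test pooled Q and G, so the difference between them entered its spread. With 3 against 3 libraries such a test cannot go below 0.10, so single genotypes were not tested against each other. The sources used here do not say how reads matching both genes were counted, nor whether strand was used, so the split between them is uncertain.

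**Figure D3:**
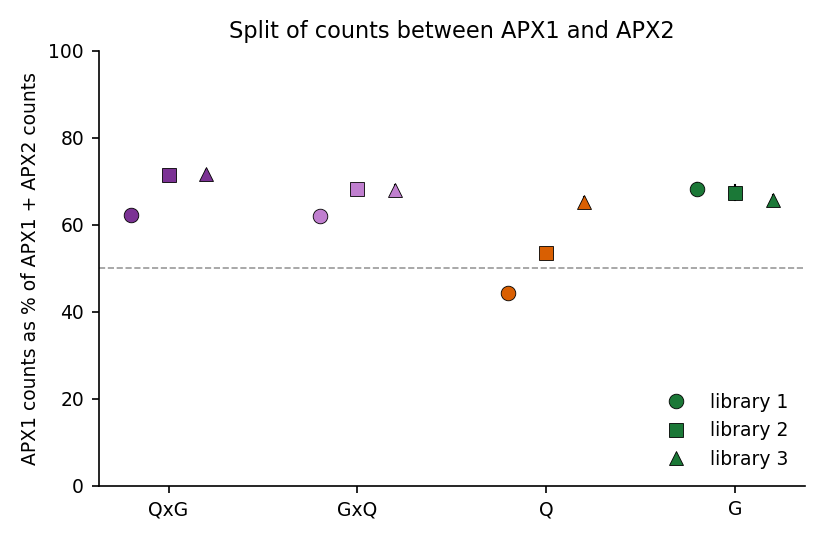
Counts of APX1 as a percentage of the counts of APX1 and APX2 together in each library, with Wilson 95% intervals that are mostly smaller than the points. The shares lie between 62.1% and 71.7% in the hybrids and in G at 65.8% to 68.3%, and the Q libraries spread from 44.3% to 65.2%.

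DHAR1, a dehydroascorbate reductase, had 55.2, 67.1 and 86.2 CPM in QxG and 39.7, 48.2 and 77.8 CPM in GxQ. It had 68.5, 63.9 and 77.5 CPM in Q and 43.1, 38.8 and 45.5 CPM in G. The G libraries did not overlap with those of Q or of QxG, whereas GxQ reached from the G range to the Q range.

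DHAR1 was 1.65-fold higher in Q than in G (95% interval 1.16 to 2.34, adjusted p = 0.0797) and 1.64-fold higher in QxG than in G (1.15 to 2.33, adjusted p = 0.0802). These differences did not pass with edgeR, and DESeq2 called both (adjusted p = 0.0334 and 0.0289). QxG and Q had nearly the same fitted level (log2 fold change -0.0097, 95% interval -0.51 to 0.49), which leaves room for a difference of either sign. The hybrids differed by a log2 fold change of 0.33 (QxG over GxQ, 95% interval -0.17 to 0.84, adjusted p = 0.415), which did not pass. Single libraries moved that value both ways: it was 0.70 without the third GxQ library (adjusted p = 0.0647), 0.14 without the first GxQ library and 0.19 without the third QxG library.

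MDHAR3, a monodehydroascorbate reductase, had the narrowest range of the 4 relative to its level. It had 366, 390.3 and 333 CPM in QxG and 362, 318 and 343 CPM in GxQ. It had 410.3, 381 and 508 CPM in Q and 426, 380.3 and 433 CPM in G. All hybrid libraries but the second of QxG lay below all parental ones. Within genotypes its SD was 0.140 on the log2 scale, and 7.40% of all genes varied less, against 57.6% for APX1, 73.0% for APX2 and 48.4% for DHAR1.

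MDHAR3 was 0.832-fold in the hybrids relative to the mid-parent (95% interval 0.704 to 0.983, log2 fold change -0.27, adjusted p = 0.141), which did not pass. Its fitted level in GxQ was 0.787-fold that of Q (95% interval 0.622 to 0.996, adjusted p = 0.154), and Q against G gave a log2 fold change of 0.07 (95% interval -0.27 to 0.41, adjusted p = 0.817). The third Q library, which stood apart, held the highest level. Without it Q against G was -0.05.

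Over the 4 genes, the test of any difference among the genotypes called APX1 (adjusted p = 0.0214). APX2, DHAR1 and MDHAR3 had adjusted p-values of 0.0669, 0.0864 and 0.250. So 1 of the 4 was called, where 26.8% of all genes were. The APX1 call ended without the first or the second G library (adjusted p = 0.0618 and 0.0613). The parents differed in 0 of the 4 genes by edgeR, where 7.31% of all genes were called. At an unadjusted p under 0.05, 2 were past the threshold (25.6% of all genes), and DESeq2 called 2 (14.8% of all genes). The reciprocal hybrids differed in 0 of the 4 by edgeR, in 0 at an unadjusted p under 0.05 and in 0 by DESeq2, where 10.1%, 24.6% and 15.2% of all genes were past these thresholds. The 95% intervals of QxG over GxQ ran from 0.705 to 1.55-fold for APX1, from 0.544 to 1.46 for APX2, from 0.886 to 1.79 for DHAR1 and from 0.842 to 1.35 for MDHAR3.

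The order of the mean levels was QxG, GxQ, Q, G for APX1, and the hybrids, which stand next to each other, did not differ beyond their spread, nor did Q and G, and GxQ against Q did not pass. For APX2 the order was Q, GxQ, QxG, G, and the first 3 overlapped. For DHAR1 it was Q, QxG, GxQ, G, and for MDHAR3 it was Q, G, QxG, GxQ. In both of these no neighbours in the order passed the test. Across the 12 libraries the log2 CPM of APX1 and APX2 had a Pearson's r of 0.655, DHAR1 had 0.445 with APX1 and 0.454 with APX2, and MDHAR3 had -0.518 with APX1, -0.313 with APX2 and 0.0203 with DHAR1. These values describe the libraries, in which depth and genotype are shared. The gene most like APX1 among the other 17886 was Solyc01g091260 (r = 0.936), for APX2 it was Solyc10g007930 (0.923), for DHAR1 Solyc06g068670 (0.901) and for MDHAR3 Solyc09g064730 (0.952), all over 12 libraries. Near APX1 on the chromosome, 2 of the 16 closest genes by identifier (up to 10 on each side) were called between the hybrids and the mid-parent, both lower, beside the 11.4% of all genes.

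**Figure D4:**
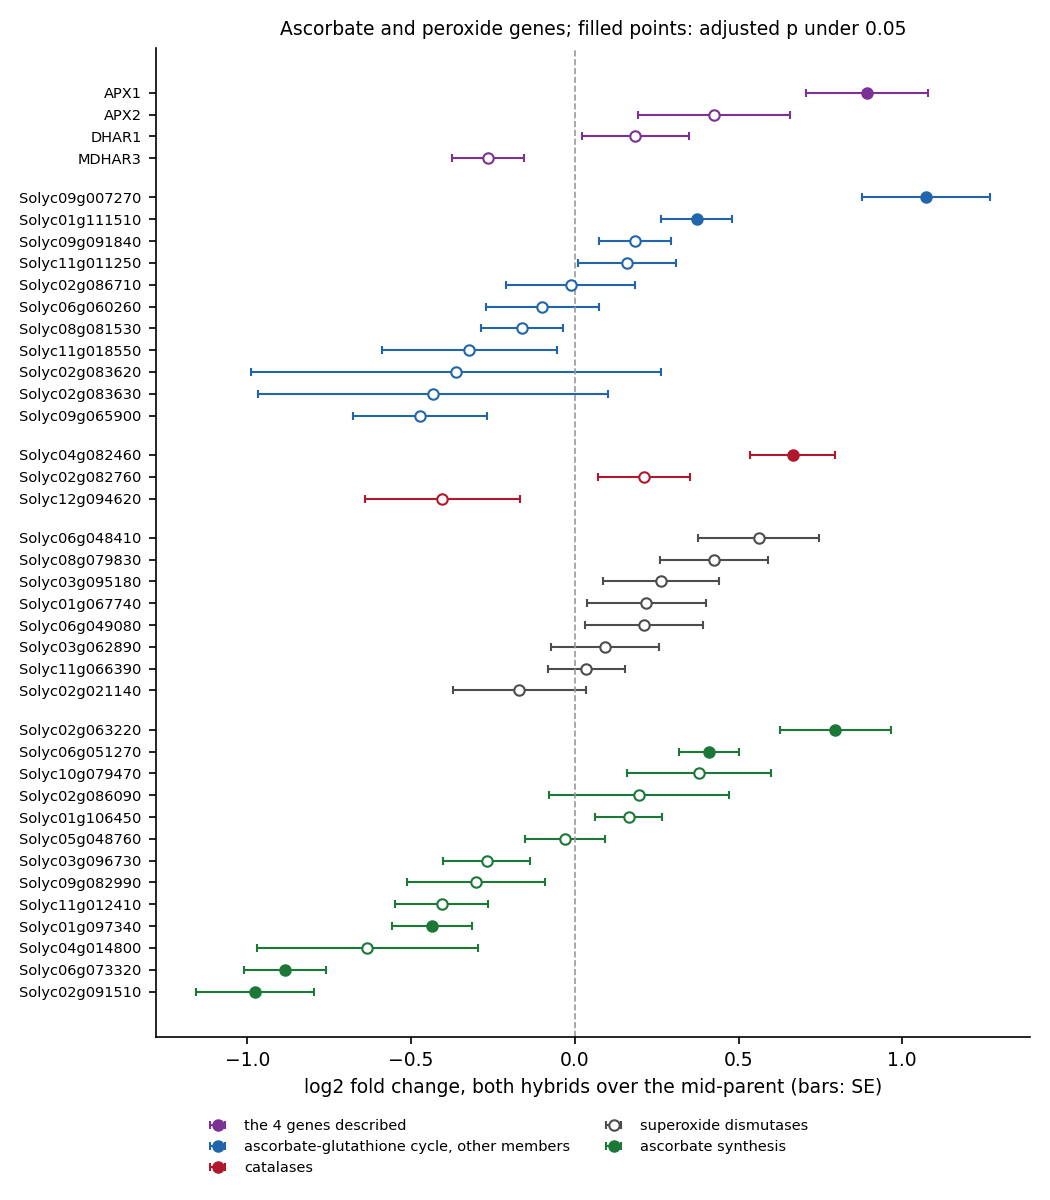
Log2 fold change, both hybrids over the mid-parent, with its SE, for the 4 genes and for 35 measured genes of the other lists; filled points have an adjusted p under 0.05. APX1 (0.89) and Solyc09g007270 (1.07) lie farthest to the right, and 2 genes of ascorbate synthesis, at -0.88 and -0.98, farthest to the left.

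Other genes of the cycle came from a list of 11 identifiers, written by hand, that hold further peroxidases, reductases and glutathione reductases. All 11 were measured, and 2 were higher and 0 lower in the hybrids than the mid-parent (11.4% of all genes in either direction), with a median log2 fold change of -0.0992, beside -0.0327 over all genes. Solyc09g007270, entered as another cytosolic ascorbate peroxidase, had 1068, 1410 and 1985 CPM in QxG and 1220, 1247 and 1546 CPM in GxQ. It had 505, 559 and 939 CPM in Q and 683, 647 and 691 CPM in G. No hybrid library overlapped with a parental one, and the gene was higher (log2 fold change 1.07, SE 0.20, adjusted p = 0.00680), a call that held without any 1 library (highest adjusted p = 0.0229). Solyc01g111510, entered as a peroxisomal one, was 1.29-fold higher in the hybrids together (adjusted p = 0.0453). Its means were 118.5 CPM in QxG, 158.9 in GxQ, 111.2 in Q and 100.9 in G. GxQ was called against Q and G (adjusted p = 0.0421 and 0.0191), and QxG against neither (0.730 and 0.365). With single libraries left out, the call against the mid-parent held only without the second QxG or the second GxQ library (highest adjusted p = 0.112, without the first G library). Solyc08g081530, which matches the RefSeq symbol MDHAR by chromosome, was the 1 gene of the 11 called between the hybrids, where 10.1% of all genes were called. It had 91.6 ± 7.77 CPM in QxG against 59.3 ± 8.23 CPM in GxQ (SD over 3 libraries, adjusted p = 0.0439). With single libraries left out, that call held only without the first or the third Q library (highest adjusted p = 0.131).

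Among the 8 measured of 9 listed superoxide dismutases, which make hydrogen peroxide from superoxide, 0 were called by edgeR in any of the 7 comparisons, where 7.31% to 15.5% of all genes were. At an unadjusted p under 0.05 between 0 and 2 of the 8 were past the threshold in a comparison. The share of all genes past it was 24.6% to 31.2% for Q against G, QxG against GxQ and each hybrid against Q, and was not computed for the others. DESeq2 called between 0 and 2, beside 14.8% to 22.4% of all genes. Their median log2 fold change for the hybrids against the mid-parent was 0.215, beside -0.0327 over all genes. Of the 3 catalases, which remove hydrogen peroxide without ascorbate, Solyc04g082460 was higher in the hybrids than the mid-parent (1.59-fold, adjusted p = 0.00931, highest 0.0321 without 1 library). It was the 1 called of the 3, where 11.4% of all genes were called in either direction. Its means were 119 CPM in QxG, 142.9 in GxQ, 66.4 in Q and 101.8 in G. Both hybrids were called against Q (adjusted p = 0.0196 for QxG and 0.00381 for GxQ). Neither was called against G (0.463 and 0.103). Solyc12g094620 was at 0.755-fold of the mid-parent (adjusted p = 0.292) and Solyc02g082760 at 1.16-fold (adjusted p = 0.356), and neither passed. Of 13 measured of 14 genes of ascorbate synthesis, 2 were higher and 3 lower in the hybrids than the mid-parent, where 11.4% of all genes were called in either direction and 5.30% higher. The median log2 fold change of the list was -0.27, beside -0.0327 over all genes. GGP1 (Solyc06g073320) and GGP2 (Solyc02g091510), which make the step that controls ascorbate synthesis in plants, fell to 0.542-fold and 0.508-fold of the mid-parent (adjusted p = 0.00230 and 0.00733). Both calls held without any 1 library, and APX1 was higher in the same comparison. Solyc02g063220, the third of the list by adjusted p, went the other way, at 1.74-fold of the mid-parent (adjusted p = 0.0131). Its call also held without any 1 library (highest adjusted p = 0.0355). The lists were chosen with earlier results known, so these counts only describe them.

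**Figure D5:**
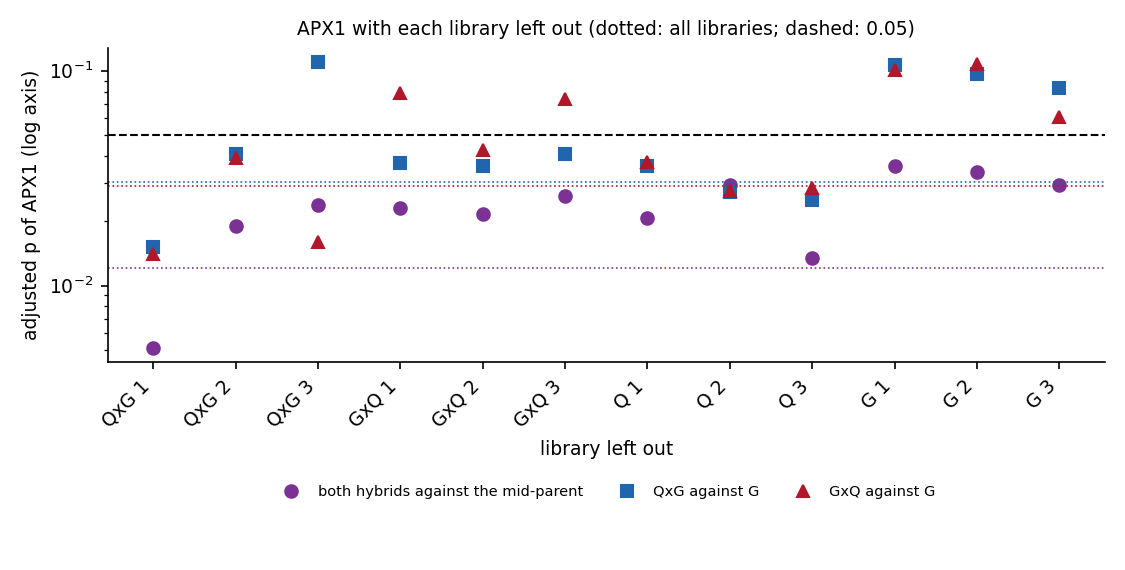
Adjusted p of APX1 (log axis) with each library left out, for both hybrids against the mid-parent, QxG against G and GxQ against G; dotted lines show the values with all libraries and the dashed line 0.05. Against the mid-parent all 12 points lie below 0.05, from 0.00513 to 0.0359, whereas the comparisons with G pass above it for 4 and 5 of the libraries.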

How the data were processed

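RNA of 12 fruit libraries was analysed from 1 table of whole-number read counts per gene, as deposited by the authors. The deposited label of the table holds the word norm, yet the column totals differ. The counts were taken as raw, which differing totals alone do not establish. Per the submitters' processing notes, which give no roles, fastp 0.21, HISAT2 2.1.0, featureCounts, edgeR and R 4.0.3 were among the tools. The sources used here name no genome build, annotation or strand setting, and no treatment of reads with several matches. How well reads from wild alleles mapped was not tested.

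Counts were scaled by TMM (factors 0.884 to 1.24) and tested in edgeR 4.0.16 (glmQLFit and glmQLFTest, R 4.3.3) with 1 mean per genotype over all libraries. The filter (filterByExpr) removed 0 genes, and p-values were adjusted over all 17887. Shares of all genes are therefore over the genes present in the deposited table, and genes absent from it are not covered. SE is the log2 fold change over the square root of F, and intervals use its t distribution (8 residual and 3.99 prior degrees of freedom). Correlations used log2(CPM + 0.5). Alternatives were DESeq2 1.42.0, other size factors and filters, smaller fits, a replicate block and left-out libraries. The method was tested on simulated data.

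Replicate numbers from the labels were checked by correlating deviations from genotype means. QxG and GxQ libraries of the same number gave 0.164, 0.333 and 0.209, so a pairing of the hybrids was tried as an alternative. These correlations do not establish a pairing, and the main values for QxG against GxQ come from the fit without it. In every other combination of genotypes at least 1 value was 0.1 or less. A fit of the hybrids alone with the replicate block gave 0 of the 4 genes called between them, as without the block.

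The table gives identifiers without names, and 0 matched RefSeq. Names and lists were written by hand. As a check, 30 of 30 listed symbols lay on the identifier's chromosome in RefSeq SLM_r2.1, and the order along it was the same for 38 of 38 pairs. Genes with no such symbol are printed by identifier. The members, lists and tests were chosen with earlier results of these data known. Pathway list genes were named if called, at most 3 per list and comparison by smallest adjusted p, and the uncalled catalases were added. Calls of list genes against a single parent are described only for Solyc01g111510 and Solyc04g082460.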

Additional observations from a re-analysis of the deposited data

How the results depend on the processing

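The main settings called 0 of the 4 genes for Q against G, QxG against GxQ, QxG against Q and GxQ against Q, and 1 for QxG against G, GxQ against G, the mid-parent and any difference. DESeq2 called 2, 0, 1, 1, 3, 2 and 1 (any difference not run). Other size factors (RLE) called 2 for GxQ against G. A filter of over 1 CPM in 6 libraries called 1 for Q against G. Fits of only the compared groups called 1 for Q against G, 3 for QxG against G and 2 for GxQ against G. The main filter removed 0 genes, so the run without a filter was the same fit and tests nothing further. No fit of only the compared groups exists for the mid-parent. The replicate block over all libraries called 1 for Q against G, 2 for QxG against G, 2 for GxQ against G and 2 for any difference. The block added DHAR1 for Q against G, QxG against G and any difference, with log2 fold changes of 0.72 and 0.68 against G (adjusted p = 0.0356 and 0.0397), and it added APX2 for GxQ against G (1.05, adjusted p = 0.0484). Without the third Q and first QxG libraries it was 1 for Q against G, QxG against Q and GxQ against Q, and 2 for QxG against G, GxQ against G and any difference. With 1 library left out, counts ran from 0 to 1 for Q against G, QxG against Q and GxQ against Q, from 0 to 2 for both hybrids against G and any difference, and from 1 to 2 for the mid-parent. These counts stand beside all-gene counts that moved too. For Q against G, 1308 genes were called in the main settings, 2643 by DESeq2 and 1214 with the stricter filter. The small fit called 2553, the block 1320 and the fit without the 2 libraries 2939.

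APX1 kept its direction throughout where it was called, at 0.77 to 1.33 for QxG against G, 0.95 to 1.10 for GxQ against G and 0.74 to 1.01 for the mid-parent without 1 library. Its adjusted p for any difference ran from 0.00759 to 0.0618. The APX1 to APX2 ratio difference was 0.21 to 0.50 without 1 library (exact permutation p 0.0996 to 0.323).

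Signs turned for differences near 0, all uncalled. Without 1 library, MDHAR3 ran from -0.049 to 0.16 for Q against G, APX1 from -0.23 to 0.33 and APX2 from -0.32 to 0.040 for QxG against GxQ, APX2 from -0.44 to 0.37 and DHAR1 from -0.17 to 0.16 for QxG against Q, and APX2 from -0.31 to 0.50 for GxQ against Q. DHAR1 for QxG against Q was 0.015 by DESeq2, 0.015 with RLE, 0.052 in the fit of 2 groups and 0.26 without the 2 libraries that stood apart, where MDHAR3 for Q against G was -0.059. The cause was not tested.

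Counts over all genes moved more. Over all alternatives they ran from 335 to 2939 for Q against G (1308 in the main settings), 1127 to 2715 for QxG against GxQ (1815), 297 to 3739 for QxG against Q (1709), 342 to 2769 for QxG against G (1521), 1258 to 4003 for GxQ against Q (2780), 777 to 3919 for GxQ against G (2205), 1002 to 3649 for the mid-parent (2045) and 3043 to 7313 for any difference (4790).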
